A study of Brassica rapa with 12 samples.

Results

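The genes described here gave no read in any wild type stem library of Brassica rapa but were clearly read in stems of plants in which BrCHR39 had been silenced. They were chosen on raw read counts summed over the 3 libraries of a group: exactly 0 reads in wild type stem and at least 50 in silenced stem, leaving out genes with at least 100 reads in wild type bud and 0 in silenced bud. The rule found 35 of the 41020 genes listed, and its bud clause left out 0 genes. The stem counts therefore chose the members, so all stem values below are a description and carry no test.

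Brassica rapa is the crop species of turnip and Chinese cabbage. Stems and buds were collected at an age of 8 weeks from 2 genotypes, wild type and BrCHR39-silenced lines, and their messenger RNA was sequenced. Each of the 4 groups, stem and bud of either genotype, has 3 libraries. The labels name no treatment, and both genotypes were grown in pots in a climate chamber with long days. The sources used here do not give the silencing construct, the number of lines or any pooling of plants. Since the 3 libraries of a group are not stated to be separate plants, the p-values below reflect the spread among libraries, part or all of which may be technical.

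Chromatin remodelling ATPases of the SNF2 family use the energy of ATP to slide, eject or exchange nucleosomes, and so change how open a gene is to transcription. The series presents BrCHR39 as such an ATPase that favours apical dominance, the hold of the growing shoot tip over the side buds, in which auxin from the tip is known to act. Wild type and silenced stems were compared to see which genes differ there when BrCHR39 is silenced, and the buds show whether the same genes are read in another tissue. The files list genes by identifier only, and the gene table used here paired 0 of the 35 members with a name, so no role can be given for any of them. Markers of cell types and tissues could not be matched to identifiers either. BrCHR39 itself is not analysed here for the same reason, so the genotype and tissue labels were not checked on the genes that define them. In whole stems and buds, fewer cells of a type and less RNA per cell cannot be told apart.

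Libraries held 12275190 to 15693349 reads assigned to genes. Summed over a group, wild type stem was the deeper stem group, with 44800802 reads against 42596235 in silenced stem, and a gene with 0 reads in wild type stem could still lie at up to 0.0768 CPM (3 reads over the group; CPM is the read count scaled to library size). Libraries of a group correlated at 0.990 to 0.992 across genes on log2 CPM, and libraries of different groups at most at 0.893. Such floors cover counting error only.

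Genes that pass from no reads to clear reads were rare in silenced stem. Of the 9955 genes with 0 wild type stem reads, 8665 also had 0 in silenced stem, 1131 had 1 to 9 reads, 124 had 10 to 49 reads and 35 had 50 or more. The mirror rule, 0 silenced stem reads and at least 50 in wild type stem, found 180 genes. The same limits in bud found 18 genes read in silenced bud alone and 273 read in wild type bud alone. Both tissues thus held fewer genes of the first kind than of the second, a description of counts at the same limit and not a test.

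**Figure D1:**
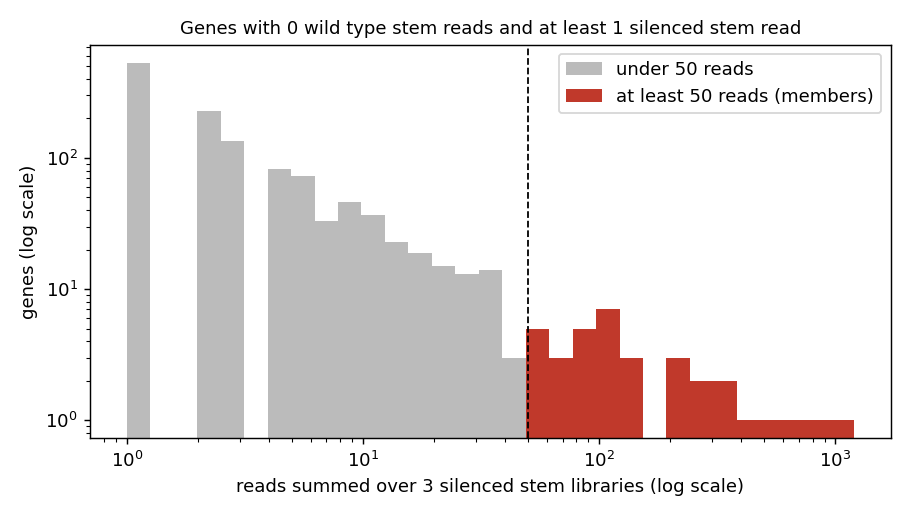
Number of genes (log axis) by reads summed over the 3 silenced stem libraries (log axis), for genes with 0 wild type stem reads and at least 1 silenced stem read. The 35 members, in red right of the dashed line at 50 reads, are the sparse upper end of a distribution in which 1131 genes had 1 to 9 reads.

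The members were low to moderate transcripts in silenced stem. They held 7707 reads over the 3 libraries, 0.0181% of all silenced stem reads, and the 4 most read members held 42.5% of these. Per member the sum had a median of 118 reads, and 22 of the 35 had at least 100. On the authors' FPKM scale, which divides by coding length, the members' mean levels in silenced stem ran from 0.613 to 81.4 with a median of 4.35. The 22486 genes with at least 50 silenced stem reads had a median of 12.6 FPKM, and 6 of the 35 members lay above it. All 35 members were read in each of the 3 silenced stem libraries, the lowest value being 10 reads in 1 library.

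Bra024251 was the most read member, with a coding length of 309 bases. It had 0 reads in each wild type stem library and 315, 363 and 393 reads in silenced stem libraries 1, 2 and 3, or 81.4 ± 9.09 FPKM (SD, n = 3). Its silenced stem level was at least 379-fold that of wild type stem, taking wild type stem at 3 reads over the group. Bra005851, with a coding length of 219 bases, came second on this per-length scale at 74.5 ± 4.95 FPKM, from 216, 257 and 223 reads. The third was Bra029210, with a coding length of 477 bases, at 17.1 ± 0.368 FPKM, from 113, 118 and 117 reads. These 3 short genes were read in both wild type and silenced buds as well.

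Across all 35 members the lower limits on the stem fold ran from 18.1 to 379, with a median of 41.7. They follow the number of reads in silenced stem, since every member stood at 0 in wild type stem. The silenced stem libraries lay close together for most members: the highest library was 1.04 to 2.60 times the lowest in CPM, with a median of 1.33. Bra014313 was the most uneven, with 26, 26 and 10 reads in silenced stem libraries 1, 2 and 3, where library 3 stood low. Bra031432 followed with 17, 14 and 25 reads and a ratio of 1.88, where library 3 stood high.

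The limit of 50 reads does not fall in a gap. The members just inside were Bra039222 with 51 and Bra031880 with 52 silenced stem reads, and the genes just outside were Bra009904 and Bra016417 with 46 each. The demand for exactly 0 wild type stem reads also left out strong cases. There were 14 genes with 1 wild type stem read and at least 50 in silenced stem, led by Bra000777 with 700 silenced stem reads and Bra040138 with 547. With up to 2 wild type stem reads allowed, 71 genes met the rule.

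Coding lengths of the members ran from 183 to 2694 bases with a median of 945. The median was 885 bases over the 4586 genes with 0 wild type stem reads and a read elsewhere, and 1131 bases over the genes with at least 50 silenced stem reads. Both limits of the rule depend on reads and so on length, and no test was made. No pair of members had identifiers within 5 numbers of each other; the closest, Bra005843 and Bra005851, were 8 apart. Identifier numbers were not taken as positions in the genome.

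Most members were not stem genes alone, since 32 of the 35 had at least 1 read in a bud library. Reads were found in wild type bud for 30 members and in silenced bud for 27. Both buds were read for 25 members (71.4%), wild type bud alone for 5, silenced bud alone for 2 and neither bud for 3. Over all 41020 genes listed, 75.3% were read in both buds, 6.68% in wild type bud alone, 2.34% in silenced bud alone and 15.6% in neither. At this limit of 1 read, the members' share in both buds was thus near that of all genes. Over the 22486 genes with at least 50 silenced stem reads, 98.8% were read in both buds and 0.249% in neither. Wild type bud alone was read for 0.841% of these and silenced bud alone for 0.151%. Many of the members' bud reads were few: with at least 10 summed reads as the limit, 15 members were read in both buds, 5 in wild type bud alone, 3 in silenced bud alone and 12 in neither. No shares over all genes are given at that limit, so the members are not compared with them there.

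**Figure D2:**
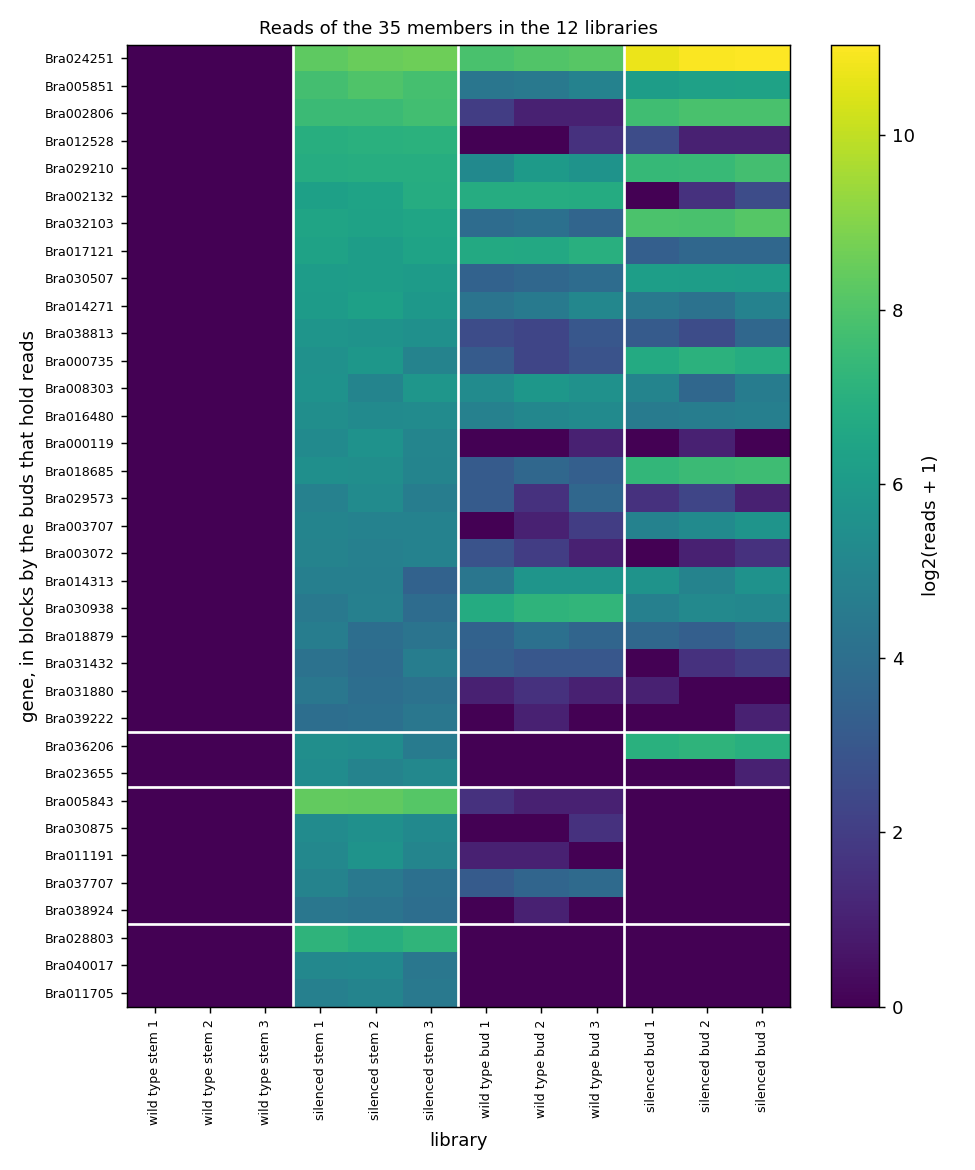
Reads of the 35 members, as log2(reads + 1), in each of the 12 libraries, in blocks from top to bottom: read in both buds (25), silenced bud alone (2), wild type bud alone (5) and neither bud (3). The wild type stem columns are at 0 throughout, as the rule demands, while the bud columns range from 0 to 2109 reads in a library.

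The 3 members without a read in any bud library were Bra028803, Bra040017 and Bra011705, so silenced stem was the single group in which they were read. Bra028803, with a coding length of 717 bases, had 146, 121 and 148 reads in silenced stem libraries 1, 2 and 3, or 13.6 ± 1.83 FPKM, at least 147-fold above wild type stem. Bra040017 had 35, 37 and 20 reads, and Bra011705 had 27, 31 and 21. All silenced stem libraries of these genes lay above 0, and no wild type stem or bud library did. At 0 reads a gene could lie at up to 0.0622 CPM in wild type bud and 0.0576 CPM in silenced bud.

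The 2 members read in silenced bud alone differed widely. Bra036206, the longest member at 2694 coding bases, had 43, 40 and 23 reads in silenced stem and 127, 144 and 123 reads in silenced bud, and 0 in all 6 wild type libraries. It is the 1 gene in the table with no wild type read and at least 50 reads in each silenced tissue. Bra023655 had 40, 30 and 35 reads in silenced stem but a single read in silenced bud library 3. Together with the 3 members without bud reads, these genes make 5 members with no read in any wild type library of either tissue.

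The 5 members read in wild type bud alone were Bra005843, Bra030875, Bra011191, Bra037707 and Bra038924. Bra005843, with a coding length of 1527 bases, was the second most read member in silenced stem, with 331, 328 and 279 reads, yet had 2, 1 and 1 reads in wild type bud and 0 in silenced bud. Its silenced stem level was 293 times that of wild type bud in CPM. Bra037707 was the member of this class with most bud reads, 8, 11 and 13 in wild type bud libraries 1, 2 and 3. The other members of the class held 1 or 2 wild type bud reads each over the 3 libraries. Leaving out a library moved these small classes: 4 members were read in silenced bud alone without wild type bud replicate 3, and 1 without silenced bud replicate 3.

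The order of stem and bud levels differed among members, though silenced stem was most often the highest group. Silenced stem had the highest mean CPM of the 4 groups for 26 of all 35 members, silenced bud for 6 and wild type bud for 3. The rule favours the first, since it asks for reads there, and ranks between tissues depend on the CPM scaling. Bra024251 was read most in silenced bud, with 1671, 2037 and 2109 reads, or 111 ± 7.05 CPM, against 29.1 ± 3.25 CPM in silenced stem and 16.1 ± 0.530 CPM in wild type bud. Bra012528 showed the other extreme: it had 119, 128 and 132 reads in silenced stem, 0, 0 and 2 in wild type bud, and 5, 1 and 1 in silenced bud. Across the 35 members the Spearman correlation of mean FPKM was 0.262 between silenced stem and silenced bud, 0.433 between silenced stem and wild type bud, and 0.640 between both buds. These describe 35 genes that were chosen on silenced stem reads and share the same libraries.

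The buds offer a comparison in which the rule removed no gene, so silenced and wild type buds were tested for every member. All 35 members passed the filter on low counts over the 12 libraries, 17 of them through their silenced stem reads, which the rule chose, and 18 also on the bud libraries alone. In silenced buds 10 members rose and 8 fell at an adjusted p under 0.05, and 17 were not called (edgeR's quasi-likelihood test, 3 libraries against 3, Benjamini-Hochberg adjustment over 28114 genes). With the 6 bud libraries filtered and fitted alone, 18 members were tested, of which 10 rose and 4 fell. In that fit 10611 of all 26510 genes tested were called higher and 11226 lower. There the share called higher was larger among members than among all genes, and the share called lower was smaller, which was not tested. Without any filter on low counts 10 members rose and 8 fell. Among all genes tested over the 12 libraries 38.5% were called higher and 41.3% lower, against 28.6% and 22.9% of the 35 members. The members' shares count the 17 that passed the filter only through silenced stem reads. Whether members were called less often than other genes therefore cannot be read from them. All 18 calls over the 12 libraries were fitted changes of at least 2-fold, which 13.4% of all genes reached upwards and 23.8% downwards. For Bra005843, with 4 wild type bud reads against 0, the fitted change exceeds the fall that the reads bound, at least 1.51-fold. Members read in silenced but not in wild type stems were thus found on both sides in bud. The median fitted log2 change in bud was -0.08 over the 35 members and -0.03 over all genes tested. The members' median is the fitted value of Bra000119, which had 1 read in each bud group, so it says little about members with clear bud reads. Over the 18 members tested on the bud libraries alone, the middle log2 changes were 1.62 for Bra005851 and 1.76 for Bra029210. The median over all genes in that fit was -0.02, and the difference was not tested. Over the 23 members with more than 3 reads in both bud groups, or with more than 3 in 1 and 0 in the other and then set at its lower limit, the median log2 ratio was -0.01.

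**Figure D3:**
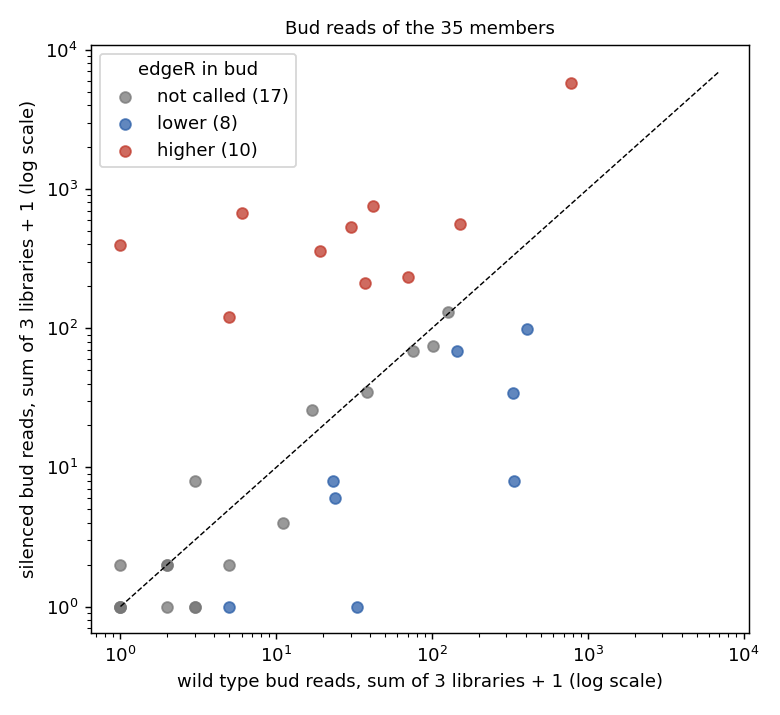
Wild type bud reads against silenced bud reads of the 35 members, each the sum of 3 libraries plus 1, on log axes; colours give edgeR's call in bud and the dashed line marks equal reads. The 10 members called higher lie above the line with 119 to 5817 silenced bud reads, and the 8 called lower lie below it.

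The 10 members that rose in silenced buds did so in every library: each silenced bud library lay above each wild type bud library, in a table where 37.1% of tested genes were called higher without overlap. Their adjusted p-values by edgeR were at most 2.59e-12. Bra036206, described above, went from 0 reads in wild type bud to 7.58 ± 0.787 CPM in silenced bud, at least 122-fold higher. Bra002806, with a coding length of 1071 bases, had 3, 1 and 1 reads in wild type bud libraries 1, 2 and 3 and 203, 236 and 232 in silenced bud, a log2 change of 6.84 ± 0.28 (approximate SE, adjusted p = 1.29e-52 by edgeR). Leaving out 1 bud library gave 6.53 to 7.60 for this gene, so the SE understates the spread. Its level in silenced stem was similar in size, 15.6 ± 1.24 CPM against 12.9 ± 0.495 CPM in silenced bud. This gene was thus close to unread in both wild type tissues and read at 182 to 236 reads in all 6 silenced libraries.

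Bra003707 had 0, 1 and 3 reads in wild type bud and 29, 38 and 52 in silenced bud, a log2 change of 4.65 ± 0.51 (adjusted p = 1.37e-15 by edgeR). Leaving out 1 bud library gave 4.20 to 5.79 for this gene. Here too silenced stem, at 2.42 ± 0.144 CPM, was near silenced bud, at 2.26 ± 0.526 CPM. Bra000735 had 8, 4 and 6 reads in wild type bud and 108, 134 and 114 in silenced bud, a log2 change of 4.16 ± 0.29 (adjusted p = 6.20e-30 by edgeR). In contrast to the former gene it stood higher in silenced bud, at 6.84 ± 0.727 CPM, than in silenced stem, at 3.63 ± 1.03 CPM. These differences between silenced tissues were not tested, since silenced stem reads chose the genes.

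Bra018685 and Bra032103 rose in silenced buds by nearly the same amount as Bra000735. Bra018685 had 8, 12 and 9 reads in wild type bud and 156, 186 and 192 in silenced bud, and Bra032103 had 14, 16 and 11 against 237, 230 and 281. Their log2 changes were 4.07 ± 0.23 and 4.06 ± 0.19. The most read member, Bra024251, rose from 230, 262 and 285 reads to 1671, 2037 and 2109, a log2 change of 2.79 ± 0.06 (adjusted p = 6.53e-88 by edgeR), the smallest adjusted p among the members. Bra030507, Bra029210 and Bra005851 also rose, with log2 changes of 2.42 ± 0.27, 1.77 ± 0.15 and 1.63 ± 0.21. Of the 10 members that rose, 6 had a higher mean CPM in silenced bud than in silenced stem. This count depends on the scaling between tissues. On the authors' FPKM, silenced bud also stood above silenced stem for Bra002806 (14.2 against 12.6) and Bra003707 (2.48 against 1.94). Bra030507 stood at 2.46 in both.

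Bra005851 and Bra030507 rose in silenced bud but stayed below their silenced stem level in mean CPM. On the authors' FPKM, Bra005851 stood at 74.5 in silenced stem and 23.9 in silenced bud. Bra030507 stood at 2.46 in both, so its lower bud level rests on the CPM scaling. These differences between tissues were not tested, since silenced stem reads chose the genes. Bra005851 had 19, 21 and 29 reads in wild type bud and 70, 80 and 82 in silenced bud, and its silenced stem level was 4.25 times its silenced bud level in CPM. Bra030507 had 10, 12 and 14 reads in wild type bud and 73, 69 and 68 in silenced bud, and its silenced stem level was 1.36 times its silenced bud level. Bra029210 had 37, 64 and 50 reads in wild type bud and 169, 175 and 213 in silenced bud, and there silenced bud was 1.13 times silenced stem.

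The 8 members that fell in silenced buds ran opposite to the stem, where the rule had set them at 0 in wild type. The largest fall among members with at least 1 CPM in wild type bud was that of Bra002132, with a coding length of 945 bases. It had 113, 113 and 111 reads in wild type bud libraries 1, 2 and 3 and 0, 2 and 5 in silenced bud, a log2 change of -5.62 ± 0.34 (adjusted p = 1.52e-35 by edgeR). Leaving out 1 bud library gave -5.08 to -6.66 for this gene. In silenced stem it had 77, 84 and 112 reads, 7.44 ± 1.61 CPM, close to the 7.07 ± 0.996 CPM of wild type bud. The gene was thus read in wild type bud and silenced stem and close to unread in wild type stem and silenced bud.

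Bra017121, with a coding length of 1053 bases, was likewise read mainly in wild type bud and silenced stem. It had 105, 99 and 124 reads in wild type bud and 9, 12 and 12 in silenced bud, a log2 change of -3.41 ± 0.24 (adjusted p = 2.10e-28 by edgeR). Its silenced stem level, 6.38 ± 0.746 CPM, was near that of wild type bud, 6.84 ± 0.869 CPM. On the authors' FPKM scale silenced stem stood lower, at 5.23 against 7.30 in wild type bud. Bra030938 had most reads in wild type bud, 110, 144 and 151 against 27, 36 and 34 in silenced bud, a log2 change of -2.17 ± 0.19 (adjusted p = 6.00e-21 by edgeR). Its 21, 27 and 14 silenced stem reads, 1.68 ± 0.487 CPM, were close in level to silenced bud, 1.86 ± 0.191 CPM. On FPKM its silenced stem stood at 4.35 against 6.57 in silenced bud. Bra008303 had 39, 57 and 47 reads in wild type bud and 31, 12 and 24 in silenced bud, a log2 change of -1.20 ± 0.27 (adjusted p = 2.99e-05 by edgeR), and the groups did not overlap in CPM.

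**Figure D4:**
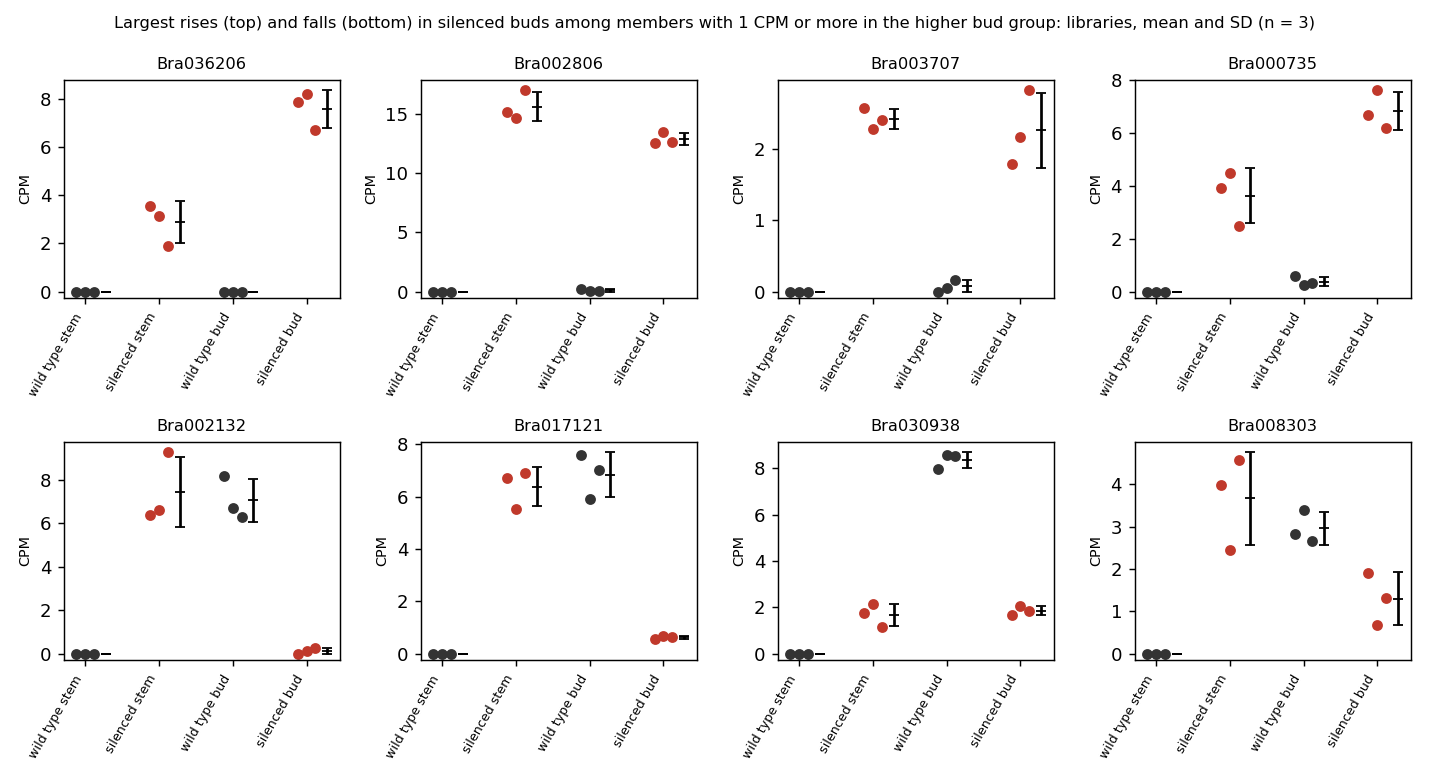
CPM in every library of the 4 members with the largest rises (top row) and the 4 with the largest falls (bottom row) in silenced buds, among members with at least 1 CPM in the higher bud group, with black points for wild type, red for silenced, and bars for mean and SD (n = 3). In the top row both silenced tissues are high. In the bottom row mean wild type bud lies above mean silenced bud, from 2.96 against 1.30 CPM in Bra008303, the smallest fall, to 7.07 against 0.129 CPM in Bra002132.

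The other 4 falls rested on few reads, and these genes passed the filter only through their silenced stem reads: filtered on the bud libraries alone, none of the 4 was tested. Bra037707 went from 8, 11 and 13 reads in wild type bud to 0 in silenced bud, at least 11.4-fold lower. Bra031432 had 9, 7 and 7 reads in wild type bud and 0, 2 and 3 in silenced bud, a log2 change of -2.22 ± 0.71 (adjusted p = 0.00301 by edgeR). Bra029573 had 8, 2 and 12 reads against 2, 4 and 1, and its groups overlapped. Bra005843 had 4 wild type bud reads against 0, at least 1.51-fold lower. Without overlap in bud were 7 of the 8 falls, where 39.9% of all tested genes were called lower without overlap.

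The calls for Bra029573 (adjusted p = 0.0152 by edgeR) and Bra005843 (adjusted p = 0.0296 by edgeR) depended on single libraries. That of Bra029573 was lost without wild type bud replicate 1 (adjusted p = 0.0514), without wild type bud replicate 3 (adjusted p = 0.152) and without silenced bud replicate 3 (adjusted p = 0.0942). That of Bra005843 was lost without wild type bud replicate 1 (adjusted p = 0.0880) and without silenced bud replicate 1, 2 or 3 (adjusted p = 0.0607, 0.0634 and 0.0671).

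Of the 17 members not called in bud, 11 had under 10 reads in each bud group, so a difference was hardly detectable at this depth. These are the 3 without bud reads and Bra012528, Bra030875, Bra000119, Bra011191, Bra023655, Bra038924, Bra031880 and Bra039222. Bra000119, for example, had 38, 48 and 32 reads in silenced stem and 1 read in each bud group. The other 6 were Bra014271, Bra038813, Bra016480, Bra003072, Bra014313 and Bra018879. Bra014313 had 19, 53 and 53 reads in wild type bud and 50, 30 and 49 in silenced bud, a log2 change of -0.05 ± 0.25. Bra014271 had 18, 22 and 34 against 21, 17 and 29, a log2 change of -0.25 ± 0.30, while its silenced stem held 66, 76 and 59 reads. Bra016480, the shortest member at 183 bases, had 28, 34 and 38 reads in wild type bud and 23, 25 and 26 in silenced bud, a log2 change of -0.54 ± 0.28 (adjusted p = 0.0660 by edgeR). A p that misses the threshold does not show that these levels were alike.

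The rule applied to buds in the same form, 0 wild type reads and at least 50 silenced reads, met the stem rule in 1 gene, Bra036206. That is 2.86% of the 35 members and 5.56% of the 18 genes found in bud, and such genes were 0.0439% of all genes listed. Of those 18 genes, 11 also had 0 reads in wild type stem and 6 had 0 in both stem groups. With up to 5 wild type bud reads allowed, a limit chosen after the values were seen, 3 members qualified, Bra036206, Bra002806 and Bra003707. The share over all genes given above is for 0 wild type bud reads and does not apply to this wider limit. Stem and bud comparisons share no library.

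Genes close to the rule were also found on both sides in bud. With up to 2 wild type stem reads allowed, 36 genes join the 35 members, of which 12 rose (33.3%) and 16 fell (44.4%) in silenced buds, beside 38.5% and 41.3% of all genes tested. These 36 genes were also chosen on silenced stem reads and were not filtered on the bud libraries alone. Their shares may therefore count genes with few bud reads and are not like for like with those of all genes. The members and these 36 genes were not tested against each other. The members that rose had a median coding length of 1134 bases and a median silenced stem level of 3.75 FPKM. Those that fell had medians of 639 bases and 5.35 FPKM, and those not called 858 bases and 2.86 FPKM. These medians over 8 to 17 genes are given as a description.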

How the data were processed

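Per the labels' protocols, total RNA from Trizol extraction went into standard Illumina libraries; the sources used here do not state strand or read layout. The deposited counts are whole reads per gene, not normalized. Among the tools in the submitters' processing notes are featureCounts 2.0.1, TopHat2, HISAT2 2.1.0 and Bowtie 1.0.1, with no roles; no source used here gives the build or annotation. The authors' deposited FPKM values follow from these counts, library totals and a gene length, which came out whole (relative tolerance 1e-06) and a multiple of 3 in all 35651 genes with reads, so coding lengths are used. The authors' counting may have divided or dropped reads that match near-identical gene copies.

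Libraries were grouped by their titles. Bud tests used edgeR 4.0.16 in R 4.3.3 on raw counts: filterByExpr (minimum count 10, 28114 genes kept), TMM scaling, 1 term per group over 12 libraries, quasi-likelihood test, two-sided. CPM uses TMM library sizes. SE is the log2 change divided by the root of the F statistic, an approximation that can be too small where a group has few reads. Scripts were tested on simulated data. Alternatives used DESeq2 1.42.0, limma 3.58.1, other scalings, filters and limits, a replicate block, and leaving out libraries. Members, rule and tests were chosen with earlier results of these data known. Genes given in detail are the most read of each bud class, the largest bud changes, the highest FPKM, the most uneven and those at the limits; the remaining members are named to account for all 35. Planned marker lists had no names to match and were not tested.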

Additional observations from a re-analysis of the deposited data

Results flagged for a closer look

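In 7 members every silenced stem library lay above every wild type stem library, while every silenced bud library lay below every wild type bud library and edgeR called a fall in bud. Such falls in bud were common: 39.9% of all genes tested over the 12 libraries were called lower without overlap. The rule fixed the stem direction, so the difference between the tissues was not tested. Bra031432, Bra037707 and Bra005843 passed the filter on low counts only through their silenced stem reads; filtered on the bud libraries alone they were not tested, and that fit called 4 falls among all members. The call of Bra005843, 4 reads against 0, was lost without wild type bud replicate 1 and without any 1 of the silenced bud libraries (adjusted p = 0.0607 to 0.0880 by edgeR). The bud log2 changes were -5.62 for Bra002132, -3.41 for Bra017121, -2.22 for Bra031432, -2.17 for Bra030938 and -1.20 for Bra008303. Bra037707 was at least 11.4-fold lower in silenced buds and Bra005843 at least 1.51-fold lower, each with 0 silenced bud reads.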

How the results depend on the processing

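The number of members follows the limits: 53 genes at 30 silenced stem reads, 22 at 100 reads, and 71 with up to 2 wild type stem reads. Leaving out 1 library, with limits scaled to the libraries left, gave 32 to 49 genes, the most without wild type stem replicate 2. Bud classes at 10 reads were 12 members in neither bud and 15 in both. Leaving out a bud library gave 1 to 4 members read in silenced bud alone. With up to 5 wild type bud reads, a limit chosen after the values were seen, 3 members, not 1, met the rule in both silenced tissues. No count over all genes at that limit is given.

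Rises in silenced buds numbered 10 under every other tool, scaling and filter run, and 10 to 11 without 1 bud library. Falls numbered 4 when the bud libraries were fitted alone, where 18 members were tested, 7 by limma on log2(FPKM + 1), 12 by limma on log2(FPKM + 0.1), and 6 to 8 without 1 bud library. Deviations of same-numbered libraries of both genotypes correlated at r = -0.0071 to 0.0116, so little variation was shared. That does not settle whether the numbers pair the libraries. With the replicate block there were 10 rises and 8 falls. Of 248 values of called members under alternatives, 0 reversed and 9 lost their call, all of Bra005843 and Bra029573. Depth limits the members with under 10 bud reads.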
